A study of Mus musculus with 6 samples.

Results

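A set of 10 genes of insulin-like growth factor (IGF) signalling, chosen by symbol, were followed in brain messenger RNA of Mettl5 knockout and wild-type mice. They were the ligand gene Igf1, the receptor gene Igf1r, the insulin receptor substrate genes Irs1 and Irs2, and the binding protein genes Igfbp2, Igfbp3, Igfbp4, Igfbp5, Igfbp6 and Igfbp7. All 10 were found by symbol among the 18491 genes of the deposited table, and all 10 reached a mean of 1 FPKM (fragments per kilobase of transcript and per unit of mapped fragments, a level corrected for length), the minimum for testing, as did 12885 genes in all. The 6 libraries comprised 3 from Mettl5-/- brains and 3 from wild-type brains. Both groups were C57BL/6N mice, an inbred laboratory strain, at postnatal day 28. Mettl5 encodes a methyltransferase that modifies the small-subunit ribosomal RNA. The sources used here do not state how the allele was made, the sex of the mice, which brain regions were taken or whether animals were pooled. Nor do they state that each replicate is an animal of its own, so a p-value here measures the spread between libraries, which may be technical.

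IGF-I is a secreted peptide that binds a receptor tyrosine kinase, and the activated receptor phosphorylates the docking proteins IRS1 and IRS2. These recruit phosphoinositide 3-kinase and Grb2 and so feed the Akt-mTOR and Ras-MAPK branches, which promote growth, survival and protein synthesis. IGF binding proteins hold IGFs outside the cell with high affinity and limit or prolong their access to the receptor, except IGFBP7, a related protein of low IGF affinity. In the brain, IGF signalling is known for its part in growth, neuron survival and myelination.

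Mettl5 itself, the gene named in the genotype, was present at 2.79, 3.81 and 2.40 FPKM in knockout libraries 1, 2 and 3, against 4.78, 5.16 and 5.92 FPKM in wild-type libraries 1, 2 and 3. The groups did not overlap, but the knockout libraries still held the transcript (log2 fold change -0.66, SE 0.15, limma Benjamini-Hochberg adjusted p = 0.79). Library sums ran from 350727 to 366861 FPKM in the knockout and from 353994 to 377334 FPKM in the wild type, and FPKM values hold no read totals, so depth is unknown. All 6 neuronal markers used as a tissue check were detected, with summed levels of 2229 to 2302 FPKM in the knockout and 2194 to 2352 FPKM in the wild type. Snap25, at a mean of 1295 FPKM, was the largest part of these sums. Of the 6, Nefl was lower and Rbfox3 higher in the knockout without overlap, against 6.43% and 5.48% of all genes tested. Their unadjusted limma p was 0.0050 and 0.030, and at a p under 0.05 3.69% of all genes were lower and 2.37% higher. A pair of knockout libraries stood apart in region markers. Knockout library 2 held 369 FPKM of 5 summed cerebellar granule cell markers, against 12.97 to 42.99 FPKM in the other 5 libraries. Knockout library 3 held 26.8 FPKM of 5 summed thalamic markers, against 91.3 to 127 FPKM elsewhere, and 1978 FPKM of 6 summed oligodendrocyte markers, against 4963 to 7189 FPKM elsewhere. All 6 oligodendrocyte markers were lower in the knockout without overlap, against 6.43% of all genes tested. At an unadjusted limma p under 0.05 there were 0 of them, against 3.69% of all genes on the lower side. With the replicate number as a block there was 1, against 14.3% of all genes in either direction. Whether the tissue taken differed between libraries was not tested.

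The comparison of genotypes asked whether IGF signalling genes differed between knockout and wild-type brains. The largest differences lay in a pair of binding proteins and ran in opposite directions, with Igfbp2 lower and Igfbp3 higher in the knockout, while Igf1, its receptor and the docking proteins differed by 0.22 or less on the log2 scale. None of the 10 genes passed an adjusted p of 0.05 in limma, against 0% of the 12885 genes tested, and the lowest adjusted p among them was 0.79. Before adjustment 2 of the 10 had a p under 0.05, against 6.05% of all genes tested, namely Igfbp3 on the higher side, where the share of all genes was 2.37%, and Igfbp2 on the lower side, where it was 3.69%. The values of the genotypes did not overlap for 2 of the 10, Igf1r and Igfbp3, both higher in the knockout, against 11.9% of all genes tested. That share was 5.48% for genes higher in the knockout and 6.43% for genes lower, a side on which 0 of the 10 lay. The median log2 fold change of the 10 was 0.014, beside -0.0032 over all genes tested, with 5 genes above 0 and 5 below.

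**Figure D1:**
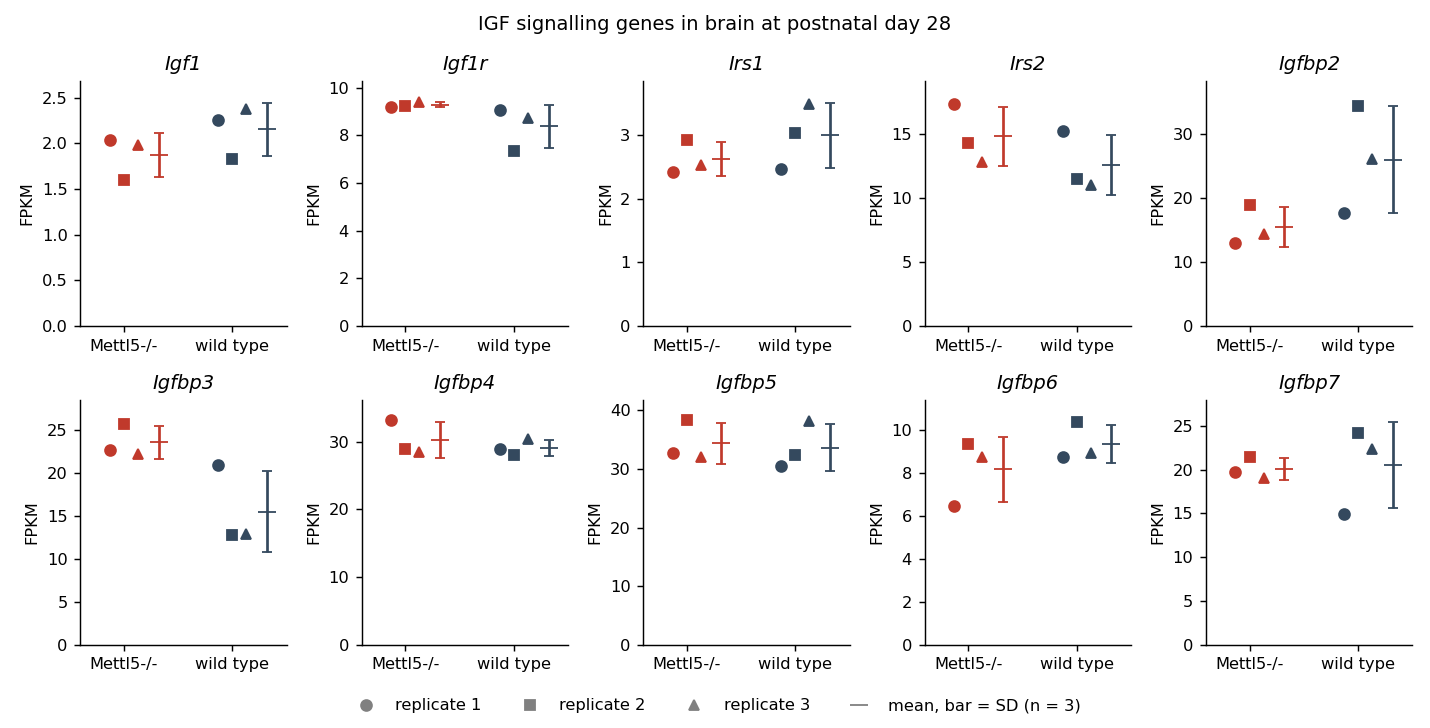
FPKM (vertical axes, each starting at 0) of the 10 IGF signalling genes in 3 Mettl5-/- libraries (red, left) and 3 wild-type libraries (dark blue, right), with symbols for the replicate number and the group mean ± SD beside the points. Igfbp3 and Igf1r are the genes without overlap, and wild-type library 1 (circle) is the wild-type library closest to the knockout for Igfbp2 and Igfbp3.

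The ligand gene Igf1 (chr10:87858265-87937047 in mm10, as are all positions here) was the least abundant of the 10. Igf1 had 2.04, 1.60 and 1.98 FPKM in knockout libraries 1, 2 and 3, against 2.25, 1.83 and 2.38 FPKM in wild-type libraries 1, 2 and 3. The groups overlapped, since wild-type library 2 lay below knockout libraries 1 and 3. The log2 fold change, taken throughout on log2(FPKM + 1), which understates the change of low genes, was -0.13 (SE 0.13, limma adjusted p = 0.86). It was -0.06 without knockout library 2 and -0.21 without wild-type library 2. Microglia and some interneurons are known sources of IGF-I in the brain. Microglial markers, all 6 with a log2 fold change below 0, summed to 94.4 to 130 FPKM in the knockout and 115 to 146 FPKM in the wild type. Interneuron markers summed to 562 to 727 FPKM in the knockout and 539 to 639 FPKM in the wild type. The highest sum was that of knockout library 2, the library high in cerebellar markers. Pvalb had 225.89 FPKM there, against 25.06 to 87.05 FPKM in the other libraries. The part of microglia and interneurons in the level of Igf1 was not tested. In bulk tissue, fewer cells of a type and less RNA per cell cannot be told apart.

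Igf1r (chr7:67952257-68233668), the receptor tyrosine kinase for IGF-I, had 9.20, 9.23 and 9.41 FPKM in knockout libraries 1, 2 and 3, against 9.05, 7.35 and 8.72 FPKM in wild-type libraries 1, 2 and 3. All knockout values lay above all wild-type values, but the gap to wild-type library 1 was small. The means were 9.28 ± 0.11 FPKM in the knockout and 8.37 ± 0.90 FPKM in the wild type (SD, n = 3 each), with a log2 fold change of 0.14 (SE 0.098, limma adjusted p = 0.81). Without wild-type library 2 it was 0.057. A 2-sided exact permutation of the FPKM values gave p = 0.1, the smallest that 3 against 3 libraries allow. Insr, the receptor for insulin, which can pair with the IGF-I receptor in hybrid receptors, had 8.05, 7.75 and 8.43 FPKM in the knockout and 7.61, 6.33 and 8.0 FPKM in the wild type. The ratio of Igf1r to Insr was 1.12 to 1.19 in knockout libraries and 1.09 to 1.19 in wild-type libraries, so the groups overlapped in the balance of the receptor transcripts.

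The docking protein genes Irs1 (chr1:82233105-82291439) and Irs2 (chr8:10984681-11008929) differed in level and in the sign of their differences. Irs2 had 17.38, 14.29 and 12.82 FPKM in knockout libraries 1, 2 and 3, against 15.28, 11.52 and 11.02 FPKM in wild-type libraries 1, 2 and 3. The groups overlapped, but each knockout library was above the wild-type library of its own number, by 0.18, 0.29 and 0.20 on the log2 scale for numbers 1, 2 and 3. The log2 fold change was 0.22 (SE 0.15, limma adjusted p = 0.81), and it was 0.11 without knockout library 1, 0.14 without wild-type library 3 and 0.36 without wild-type library 1. With the replicate number as a block the unadjusted p was 0.0176 in place of 0.184, and the limma adjusted p was 0.298. Irs1 had 2.43, 2.93 and 2.53 FPKM in the knockout, against 2.47, 3.04 and 3.49 FPKM in the wild type. Its log2 fold change was -0.13 (SE 0.13, limma adjusted p = 0.86), and it was -0.05 without wild-type library 3 and -0.23 without wild-type library 1. The Irs2 to Irs1 ratio was 7.15, 4.88 and 5.07 in knockout libraries 1, 2 and 3 and 6.19, 3.79 and 3.16 in wild-type libraries 1, 2 and 3. It was higher in the knockout within every number, although the groups overlapped.

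Igfbp2 and Igfbp3 had the largest differences of the 10, with Igfbp2 ahead except without knockout library 1 or wild-type library 2, where Igfbp3 was. Igfbp2 (chr1:72824480-72852474) encodes a secreted binding protein that is abundant in the developing brain and is made by astrocytes, meninges and choroid plexus. Igfbp3 (chr11:7206086-7215498) encodes the main IGF carrier of blood plasma, which forms a complex with IGF and the acid-labile subunit. Their promoters are shown because these genes differed most between the genotypes and in opposite directions. The sequences are the 250 bases before a RefSeq transcript start in GRCm38.p6, for Igfbp2 at chr1:72824230-72824479 on the + strand, the upstream one of its 2 windows, and for Igfbp3 at chr11:7213924-7214173 on the - strand, inside the annotated span of the gene. They read 5′ to 3′ on the gene's strand, and capitals mark the GC box letters GGGCGG, which were searched on both strands, as were TATAAA and TGTTTAC.
Igfbp2: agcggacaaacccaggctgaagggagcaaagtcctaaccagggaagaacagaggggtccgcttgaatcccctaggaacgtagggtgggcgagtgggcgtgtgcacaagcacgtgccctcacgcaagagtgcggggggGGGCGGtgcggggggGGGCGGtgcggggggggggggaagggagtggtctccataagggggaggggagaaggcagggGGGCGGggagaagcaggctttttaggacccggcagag
Igfbp3: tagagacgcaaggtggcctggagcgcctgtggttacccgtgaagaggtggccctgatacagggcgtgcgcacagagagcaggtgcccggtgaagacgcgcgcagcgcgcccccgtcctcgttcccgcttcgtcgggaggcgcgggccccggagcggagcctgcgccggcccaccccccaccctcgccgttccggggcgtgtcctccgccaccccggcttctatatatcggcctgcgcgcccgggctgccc
The Igfbp2 window shown held 3 GC boxes, none overlapping another motif searched, and was 67.2% G or C. The other Igfbp2 window, at chr1:72825137-72825386, held 0 and was 56.4% G or C, so the number for Igfbp2 depends on the start chosen. The Igfbp3 window held 0 and was 73.2% G or C, beside a median of 52.4% over 32851 promoter windows of the same length. GGGCGG was present in 32.7% of those windows, and in at least 1 window of Igfbp2, Igfbp7, Igf1r, Irs1 and Irs2 among the 10 genes. TATAAA, found in 12.4% of all windows, was present for Igfbp4 and Igfbp6. The letters TGTTTAC, which FOXO factors can bind and which 3.17% of windows held, were in 0 of the 11 windows of the 10 genes. A match is a description and not a site, and no match says only that these letters are not in the window.

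Igfbp2 had 12.97, 19.00 and 14.44 FPKM in knockout libraries 1, 2 and 3, against 17.66, 34.33 and 26.12 FPKM in wild-type libraries 1, 2 and 3. The groups overlapped because wild-type library 1 lay below knockout library 2, although each knockout library was below the wild-type library of its own number. The means were 15.47 ± 3.14 FPKM in the knockout and 26.04 ± 8.34 FPKM in the wild type (SD, n = 3 each), a ratio of 0.594. The Igfbp2 difference on the log2 scale was -0.68 (SE 0.24, 95% confidence interval -1.25 to -0.12). The limma p was 0.0248 before adjustment and 0.79 after it. With the replicate block these were 0.00057 and 0.285. The 2-sided exact permutation, which ignores the replicate number, gave p = 0.2.

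Markers of the cell types known to make Igfbp2 differed in both directions. Of the 6 astrocyte markers, Aqp4, Gfap, Gja1 and Aldh1l1 had a log2 fold change below 0 (-0.64, -0.58, -0.24 and -0.01), and Slc1a3 and Slc1a2, the glutamate transporter genes, had one above 0 (0.33 and 0.002). Slc1a3 had 139.42, 210.88 and 177.8 FPKM in the knockout against 127.51, 130.24 and 157.61 FPKM in the wild type, higher within all 3 numbers. Gfap, an intermediate filament of astrocytes, had 51.61, 61.36 and 46.46 FPKM in the knockout against 68.55, 88.34 and 82.29 FPKM in the wild type. Gfap and Gja1, 2 of the 6, were lower without overlap, against 6.43% of all genes tested. Their unadjusted limma p was 0.0032 and 0.030, and 3.69% of all genes were lower at a p under 0.05. Slc1a3, on the higher side, overlapped between genotypes, with an unadjusted limma p of 0.078, or 0.039 with the replicate block. Aqp4, the water channel of astrocyte endfeet, had 17.16, 28.42 and 18.29 FPKM in the knockout against 21.23, 42.99 and 38.52 FPKM in the wild type, with an unadjusted limma p of 0.0691, or 0.0055 with the replicate block. The summed astrocyte markers were 494 to 623 FPKM in the knockout and 508 to 690 FPKM in the wild type. All 6 choroid plexus markers had a log2 fold change below 0, with sums of 257 to 450 FPKM in the knockout and 375 to 538 FPKM in the wild type. Ttr made up most of these sums, with a mean of 391 FPKM over the 6 libraries, beside 1.05 to 3.56 FPKM for the other markers. Of 8 meningeal fibroblast markers 6 were tested, and 5 of these had a log2 fold change above 0, with a median of 0.11. The 8 summed to 32.6 to 37.9 FPKM in the knockout and 32.7 to 34.8 FPKM in the wild type. None of the markers of these 3 lists was at 0 in all libraries. The part of these cells in the Igfbp2 difference was not tested.

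Igfbp3 had 22.68, 25.68 and 22.25 FPKM in knockout libraries 1, 2 and 3, against 20.88, 12.72 and 12.83 FPKM in wild-type libraries 1, 2 and 3. All knockout values lay above all wild-type values, with wild-type library 1 near the knockout and the other two wild-type libraries far below. The means were 23.5 ± 1.9 FPKM in the knockout and 15.5 ± 4.7 FPKM in the wild type (SD, n = 3 each), a ratio of 1.52. The log2 fold change was 0.61 (SE 0.18, 95% confidence interval 0.18 to 1.04), with a limma p of 0.0121 before adjustment and 0.79 after it. With the replicate block the limma p was 0.0135, adjusted to 0.296. The difference was 0.11 on the log2 scale within number 1, 0.96 within number 2 and 0.75 within number 3. The exact permutation gave p = 0.1, the smallest possible. Without wild-type library 1 the log2 fold changes were 0.83 for Igfbp3 and -0.93 for Igfbp2, and neither passed after adjustment. Without knockout library 2, high in cerebellar markers, Igfbp2 was at -0.83 and Igfbp3 at 0.55, and without knockout library 3, low in thalamic markers, they were at -0.65 and 0.65, with an unadjusted limma p of 0.0731 for Igfbp2. Endothelial markers summed to 121 to 139 FPKM in the knockout and 116 to 146 FPKM in the wild type. Mural cell markers summed to 69.3 to 78.3 FPKM in the knockout and 61.9 to 86.8 FPKM in the wild type. Of the 6 mural markers 2 had a log2 fold change above 0 and 4 below. Pdgfrb, 1 of the 6, was higher without overlap, against 5.48% of all genes tested. It had 6.50, 7.51 and 6.44 FPKM in the knockout against 5.28, 5.63 and 6.04 FPKM in the wild type. Its unadjusted limma p was 0.0526, or 0.0427 with the replicate block. The part of endothelial and mural cells in the Igfbp3 level was not tested.

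**Figure D2:**
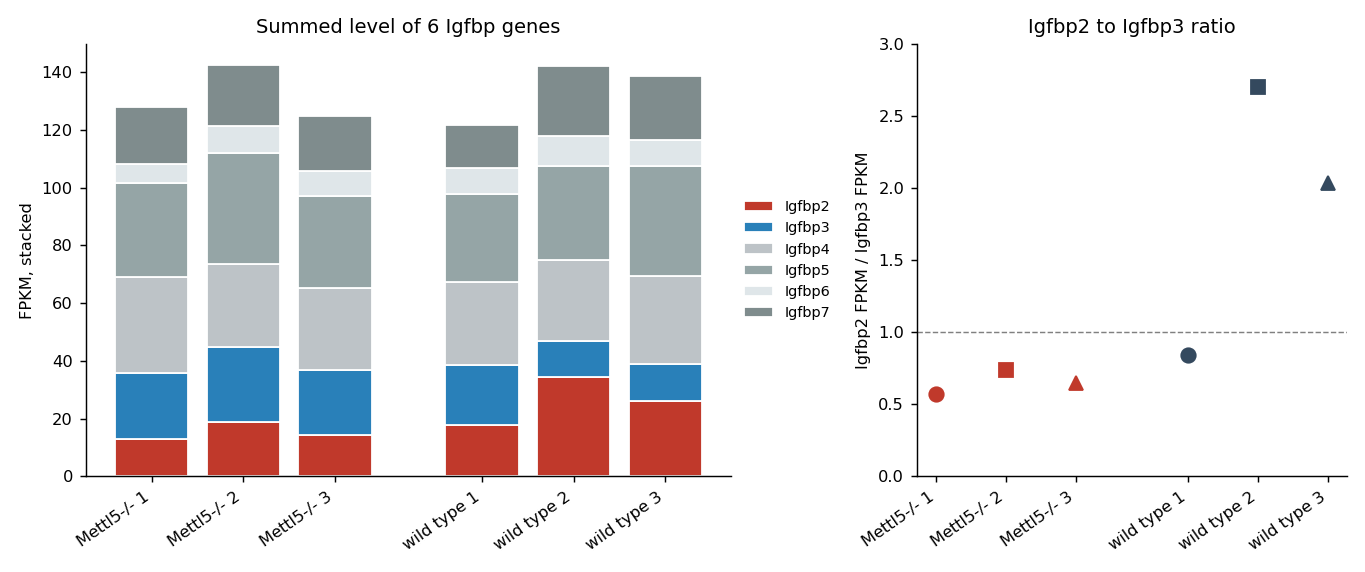
Left, FPKM of the 6 Igfbp genes stacked for each Mettl5-/- and wild-type library; right, the ratio of Igfbp2 to Igfbp3 in the same libraries, with a dashed line at 1. The ratio is 0.57 to 0.74 in the knockout, 0.85 in wild-type library 1 and 2.70 and 2.04 in wild-type libraries 2 and 3, while the stacked height differs little between genotypes.

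The summed level of the 6 binding protein genes was 128, 143 and 125 FPKM in knockout libraries 1, 2 and 3 and 122, 142 and 139 FPKM in wild-type libraries 1, 2 and 3. The groups overlapped in this sum, at means of 132 ± 9.5 FPKM in the knockout and 134 ± 11 FPKM in the wild type (SD, n = 3 each). Within it, Igfbp2 made up 10.1% to 13.3% in the knockout and 14.5% to 24.2% in the wild type. Igfbp3 made up 17.7% to 18.0% in the knockout and 8.96% to 17.2% in the wild type. The ratio of Igfbp2 to Igfbp3 was 0.572, 0.740 and 0.649 in knockout libraries 1, 2 and 3. In wild-type libraries 1, 2 and 3 it was 0.846, 2.70 and 2.04. Igfbp3 thus exceeded Igfbp2 in every knockout library and in wild-type library 1. The ratio was formed after both genes' values were known and is given as a description, with no test.

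The remaining binding protein genes had log2 fold changes between -0.18 and 0.05, and the genotypes overlapped for all 4. Igfbp5 (chr1:72858065-72874865), a matrix-binding family member and the most abundant of the 10, had 32.75, 38.34 and 32.02 FPKM in the knockout against 30.54, 32.33 and 38.15 FPKM in the wild type (log2 fold change 0.03, SE 0.11, limma adjusted p = 0.97). Its gene lies next to Igfbp2 on chromosome 1, with 5590 bases between them in RefSeq GRCm38. The coefficient of variation over the 6 libraries was 9.86% for Igfbp5 and 38.9% for Igfbp2. Igfbp4 (chr11:99040005-99052655), which binds IGFs in the extracellular fluid until proteases cleave it, had 33.26, 28.87 and 28.46 FPKM in the knockout against 28.87, 28.04 and 30.39 FPKM in the wild type. It varied least of the 10, with a coefficient of variation of 6.54% over the 6 libraries.

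Igfbp6 (chr15:102144186-102149512), which prefers IGF-II as its ligand, had 6.45, 9.31 and 8.72 FPKM in the knockout against 8.71, 10.36 and 8.92 FPKM in the wild type. Each knockout library was below the wild-type library of its number, by a small margin for number 3 (-0.03 on the log2 scale), and the log2 fold change was -0.18 (SE 0.14, limma adjusted p = 0.82). It was -0.04 without knockout library 1, -0.28 without knockout library 2, -0.11 without wild-type library 2 and -0.34 with array weights. Igfbp7 (chr5:77349240-77408045), a protein of the vessel wall and basement membrane, had 19.74, 21.43 and 19.05 FPKM in the knockout against 14.90, 24.23 and 22.33 FPKM in the wild type. The knockout values all lay inside the wild-type range, and the log2 fold change was -0.0016 (SE 0.17, 95% confidence interval -0.40 to 0.39).

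**Figure D3:**
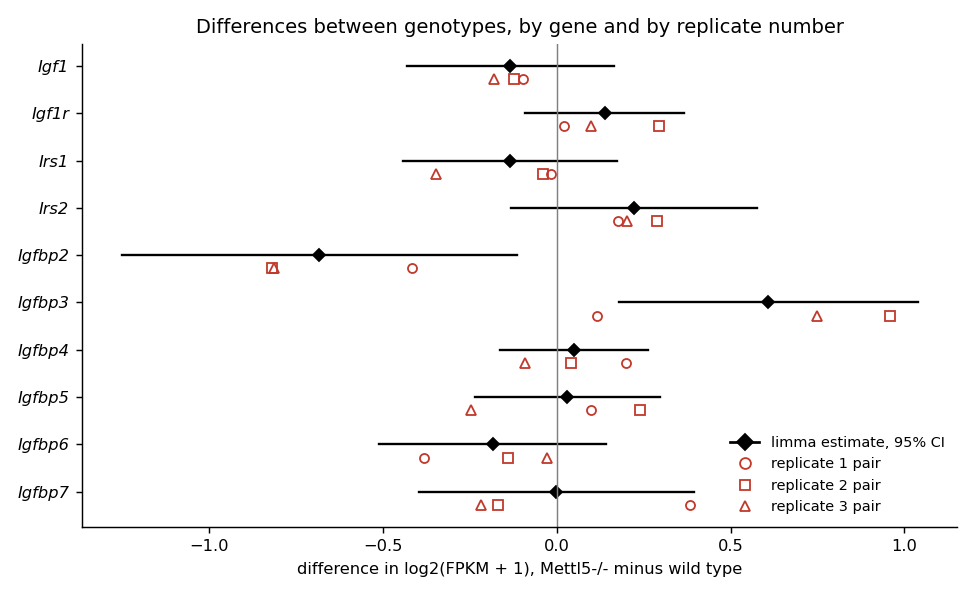
Difference in log2(FPKM + 1), Mettl5-/- minus wild type (horizontal axis), for each of the 10 genes: black diamonds are limma estimates with 95% confidence intervals, and open red symbols are the differences between libraries with the same replicate number. The intervals of Igfbp2 (-1.25 to -0.12) and Igfbp3 (0.18 to 1.04) are the ones that leave out 0, before any adjustment for the number of genes tested.

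Across same-numbered libraries, 7 of the 10 genes differed in the same direction in all 3 pairs, against 40.0% of all genes tested. Igf1r, Irs2 and Igfbp3 were higher in the knockout in every pair (3 of the 10, against 19.5% of all genes), and Igf1, Irs1, Igfbp2 and Igfbp6 were lower (4 of the 10, against 20.5%). With the replicate number as a block, 3 of the 10 genes had an unadjusted p under 0.05, Igfbp2, Igfbp3 and Irs2, against 14.3% of all genes tested, while 0 passed after limma's Benjamini-Hochberg adjustment (lowest adjusted p 0.285). Wild-type library 1 was the wild-type library nearest to the knockout mean for 6 of the 10 genes, Igf1r, Irs1, Irs2, Igfbp2, Igfbp3 and Igfbp6, against 41.0% of all genes tested.

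By level, FPKM being per length and so comparable between genes, the order of the means over the 6 libraries was Igfbp5, Igfbp4, Igfbp2, Igfbp7, Igfbp3, Irs2, Igf1r, Igfbp6, Irs1 and Igf1, spanning 34.0 to 2.01 FPKM. Igfbp5 was above 87.6% of the genes in the table and Igf1 above 37.1%. Irs2 stood clear of Igf1r below it, and so did Igfbp6 of Irs1 and Irs1 of Igf1, with no overlap of their ranges over the 6 libraries. All other neighbours in this order overlapped. Igfbp2, Igfbp7 and Igfbp3 averaged 20.8, 20.3 and 19.5 FPKM, in an order that varied between libraries.

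The genes whose pattern over the 6 libraries was most like that of a member were found by Pearson's r of log2(FPKM + 1), among genes of at least 5 FPKM on average. For Igfbp2 these were Tgoln1 (r = 0.995) and Npepps (r = 0.992), and for Igfbp3 Rae1 (r = 0.990) and Psmf1 (r = 0.989). For Igf1r they were Rab3gap2 and Cpeb4 (both r = 0.990), for Irs2 Tubgcp2 (r = 0.998) and Rpap2 (r = 0.995), and for Irs1 Dst (r = 0.987) and Plcxd2 (r = 0.980). Igf1 was most like Sdccag8 (r = 0.983) and Trmt5 (r = 0.972). Igfbp4 was nearest to Gcdh (r = 0.980) and Mbd2 (r = 0.969), Igfbp5 to Sel1l3 (r = 0.988) and Atf7 (r = 0.976), Igfbp6 to Cnpy4 (r = 0.982) and Wfdc1 (r = 0.968), and Igfbp7 to Akt1s1 (r = 0.977) and Glt8d1 (r = 0.967). With 6 libraries and 9365 or 9366 genes to choose from, between 3 and 92 genes exceeded r = 0.95 for each member, so these values are descriptions only. Cpeb4, a cytoplasmic polyadenylation element binding protein gene, had 21.78, 21.89 and 23.45 FPKM in the knockout against 19.93, 13.68 and 19.55 FPKM in the wild type, with its lowest value in the library where Igf1r was lowest.

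Other genes of the pathway were read from 6 lists holding 85 genes, of which 84 were in the table and 68 were tested. None of the 68 passed over all genes in limma, against 0% of all genes tested. At an unadjusted p under 0.05 there were 3, or 4.41%, against 6.05% of all genes tested, and for 6, or 8.82%, the genotypes did not overlap, against 11.9%. With the replicate block 7 of the 68, or 10.3%, had an unadjusted p under 0.05, against 14.3% of all genes tested, and 0 passed after adjustment. These shares are no higher than those over all genes.

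In the rest of the IGF family, Igf2, the other IGF ligand, made by meninges and choroid plexus in the postnatal brain, was far more abundant than Igf1. Igf2 had 29.92, 41.35 and 28.82 FPKM in the knockout against 33.91, 35.11 and 28.55 FPKM in the wild type, which is 14.6 to 25.8 times the Igf1 level in knockout libraries and 12 to 19.2 times in wild-type libraries. Of 11 genes in this list 4 were tested, with a median log2 fold change of 0.067, which was -0.03 without knockout library 2. Irs4, a docking protein gene expressed in the hypothalamus, had 1.24, 0.59 and 0.50 FPKM in the knockout against 1.63, 2.40 and 0.52 FPKM in the wild type (log2 fold change -0.45, SE 0.31, limma adjusted p = 0.81). Of the insulin genes, Ins2 was listed at 0 in 5 libraries and at 0.14 FPKM in wild-type library 2, and Ins1 was not found by symbol. Of the IGFBP proteases and their inhibitors 5 of 8 were tested, all with log2 fold changes between -0.06 and -0.02, but the median of -0.04 was 0.013 without knockout library 3 and 0.017 without wild-type library 1. Stc1, a stanniocalcin gene, had a log2 fold change of -0.06 (SE 0.15), and the metalloprotease gene Adam9 had -0.03 (SE 0.11).

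In the PI3K-Akt-mTOR branch 20 of 26 genes had a log2 fold change above 0, by small amounts, and the median was 0.034, or -0.0016 without knockout library 3. Foxo1, a transcription factor that Akt keeps out of the nucleus, had 9.09, 10.53 and 8.69 FPKM in the knockout against 7.02, 8.33 and 7.15 FPKM in the wild type. The groups did not overlap, and the log2 fold change was 0.30 (SE 0.11, limma adjusted p = 0.79 from an unadjusted 0.0271). Tsc2, which restrains mTOR complex signalling, was the other gene without overlap, at 26.1 ± 1.0 FPKM in the knockout and 24.6 ± 0.22 FPKM in the wild type (SD, n = 3 each). Foxo4 had 5.61, 6.66 and 4.76 FPKM in the knockout against 6.33, 7.20 and 6.64 FPKM in the wild type, with overlap.

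In the Ras-MAPK branch 10 of 17 genes had a log2 fold change above 0, with a median of 0.026, which was 0.10 without knockout library 2 and -0.0041 without knockout library 3. Grb2, the adaptor that joins receptors and docking proteins to Ras activation, had 69.13, 82.41 and 71.50 FPKM in the knockout against 67.58, 68.00 and 60.53 FPKM in the wild type. Braf, a kinase of the cascade, had 20.42, 19.18 and 19.96 FPKM in the knockout against 19.04, 14.89 and 17.93 FPKM in the wild type. Both genes were without overlap, with log2 fold changes of 0.18 and 0.20 (limma adjusted p = 0.80 and 0.79). Their unadjusted limma p was 0.111 and 0.0987 without the replicate block and 0.0482 and 0.0440 with it.

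Among negative regulators of insulin and IGF receptor signalling 5 of 11 tested genes had a log2 fold change above 0, with a median of -0.054, which was 0.011 without a filter on low values. Inppl1, which encodes the lipid phosphatase SHIP2, had 8.26, 9.50 and 7.16 FPKM in the knockout against 9.65, 11.46 and 11.80 FPKM in the wild type. The groups did not overlap (log2 fold change -0.37, SE 0.12, limma adjusted p = 0.79 from an unadjusted 0.0193). Socs2, a feedback inhibitor of growth hormone signalling, had 11.53, 8.62 and 10.26 FPKM in the knockout against 9.93, 7.04 and 7.49 FPKM in the wild type, and the groups overlapped. Its unadjusted limma p was 0.092 without the replicate block and 0.0113 with it. In the growth hormone axis, which drives IGF-I production in the liver, 5 of 9 genes were tested. All 5 had a log2 fold change below 0, from -0.33 for Prlr to -0.009 for Sst, also an interneuron marker here. Their median was -0.087, beside -0.0032 over all genes tested. Ghr, the growth hormone receptor gene, had 2.98, 3.03 and 3.09 FPKM in the knockout against 3.63, 3.31 and 2.98 FPKM in the wild type. Prlr, the receptor gene for prolactin, which is strong in choroid plexus, had 1.19, 0.91 and 0.90 FPKM in the knockout against 1.44, 1.70 and 1.38 FPKM in the wild type, without overlap (log2 fold change -0.33, SE 0.13, limma adjusted p = 0.79 from an unadjusted 0.0343). The choroid plexus sums given above, mostly Ttr, overlapped between genotypes, at 257 to 450 FPKM in the knockout and 375 to 538 FPKM in the wild type. All 6 of these markers had a log2 fold change below 0, and 1 was lower without overlap, against 6.43% of all genes tested. This was Folr1, at 1.46, 1.67 and 2.06 FPKM in the knockout against 2.21, 3.44 and 2.18 FPKM in the wild type. Its unadjusted limma p was 0.0495, and 3.69% of all genes were lower at a p under 0.05. The part of choroid plexus cells in the Prlr difference was not tested.

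**Figure D4:**
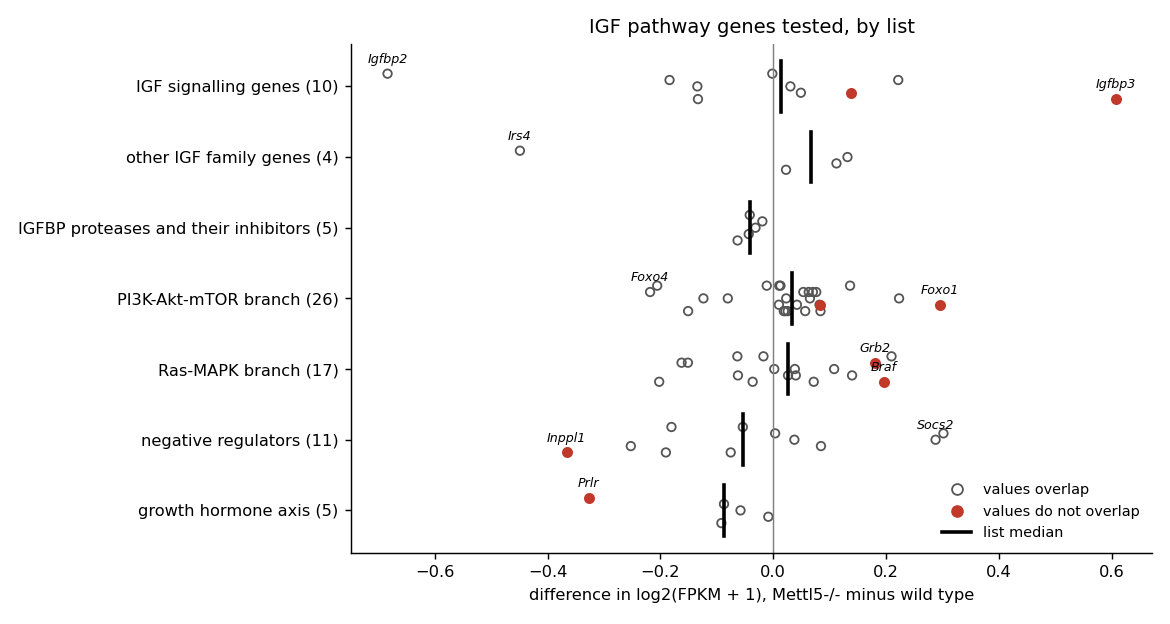
Difference in log2(FPKM + 1), Mettl5-/- minus wild type (horizontal axis), for each tested gene of the 10 IGF signalling genes and of 6 further pathway lists (number tested in brackets); filled red points are genes whose values do not overlap between genotypes and black bars are list medians. The medians lie between -0.087 and 0.067, and Igfbp2 and Igfbp3 lie farthest from 0.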

How the data were processed

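Brain RNA was isolated with Trizol, polyadenylated RNA was selected on oligo(dT) beads and libraries were amplified by PCR from random-primed cDNA, per the labels' protocols. Values are FPKM as the authors deposited them, 1 column per library with 2 decimals, per the file headers. Bowtie2, RSEM and mm10 are named in the submitters' processing notes, and their versions, the annotation and the strand setting are not known here. The lowest positive value was 0.01 FPKM in every library, the rounding step itself, so whole reads could not be recovered and no count model was run.

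Groups came from the genotype and replicate numbers from the titles. The test was limma 3.58.1 (R 4.3.3; trended, robust eBayes) on log2(FPKM + 1), 2-sided, in the 12885 genes averaging 1 FPKM or more, with Benjamini-Hochberg adjustment over all of them and a threshold of 0.05. Exact permutations used SciPy 1.17.1. Alternatives were a replicate block, a pseudocount of 0.1, no filter, a filter of 5 FPKM, 3 rescalings, array weights, a plain eBayes and leaving out each library. Deviations from group means correlated between same-numbered libraries (0.485, 0.413 and 0.539 for numbers 1, 2 and 3), and the replicate block is given as an alternative, since no label states a pairing.

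Named genes were Mettl5, the 10 genes, the 2 of lowest unadjusted p in each pathway list and the 2 nearest patterns of each gene. Igf2, Ins2, Tsc2 and the cell type markers named were added after their values were seen. The 10 genes and all lists were chosen with earlier results of these data known. Ins1 was in the list of the IGF family but was not found by symbol among the genes as read here, so it has no values. Promoter sequences came from RefSeq (GRCm38.p6, the assembly of mm10), which matched all 10 genes, in 11 windows.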

Additional observations from a re-analysis of the deposited data

How the results depend on the processing

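No IGF signalling gene and no gene of the pathway lists passed an adjusted p of 0.05 in limma under any of the 15 alternatives run. Over all genes tested the count was 0 except for 1 without a filter on low values (Hist2h2aa2) and 0 to 1 when a library was left out (Rps27rt, without wild-type library 3), both named after their values were seen and both with near-identical copies. Counts at an unadjusted p under 0.05 ran from 315 (without wild-type library 2) to 1842 (replicate block) of all genes and from 1 to 4 of the 10 genes. Igfbp3 stayed higher in the knockout (log2 fold change 0.49 to 0.83, unadjusted p under 0.05 in 15 of 15 alternatives) and Igfbp2 lower (-0.93 to -0.47, 11 of 15). For Igfbp2 the unadjusted p was at most 0.0829. The replicate block changed no call, and with it Mettl5 had an adjusted p of 0.285. Mettl5 lay between -0.82 and -0.55. The median of the 10 genes ran from -0.072 to 0.076 when a library was left out, so its sign is not fixed. Small differences changed sign: Igfbp7 was 0.026 with rescaling to a common sum, 0.0018 with median ratio scaling and 0.0021 with quantile normalization, and -0.20 to 0.13 when a library was left out. Leaving out a library also gave -0.020 to 0.089 for Igfbp4 and -0.049 to 0.12 for Igfbp5. A filter of 5 FPKM removed Igf1, Irs1 and Mettl5, which have no value there. The cause of these changes was not tested. Depth is unknown, so what it limits cannot be stated.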
